A study of Bos taurus and Sus scrofa with 10 samples.

Results

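The subcortical maternal complex is a large protein assembly that lies under the membrane of the oocyte and stays in the outer cells of the early embryo. Its parts are made from maternal messenger RNA, stored while the oocyte grows, and females that lack one of them can ovulate but their embryos often stop during the first cleavages. NLRP5 (also called MATER) is a core part together with the KH-domain proteins OOEP and KHDC3L and the Groucho-related protein TLE6, while PADI6, a relative of the peptidylarginine deiminases, is needed for the fibrous lattices of the oocyte cytoplasm. NLRP proteins carry a nucleotide-binding NACHT domain and leucine-rich repeats. Some relatives, such as NLRP3, are sensors of innate immunity, whereas a group expressed in oocytes includes NLRP2, NLRP5, NLRP8, NLRP9, NLRP13 and NLRP14.

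Here 10 genes were followed: NLRP2, NLRP5, NLRP8, NLRP9, NLRP13, NLRP14, TLE6, OOEP, PADI6 and KHDC3L. They were chosen by name, as the rows of the cow and pig tables whose symbol matched. Of the 10 symbols, 9 had a row in at least 1 species and 4 (NLRP8, NLRP9, OOEP and PADI6) had one in both. The cow table gave 7 of its 22845 rows (NLRP5, NLRP8, NLRP9, NLRP14, OOEP, PADI6 and KHDC3L) and 6 of 21867 rows came from pig (NLRP8, NLRP9, NLRP13, TLE6, OOEP and PADI6). The other combinations, NLRP2 included, had no row under that symbol and are not analysed here.

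Total RNA from cow (Bos taurus) and pig (Sus scrofa) was sequenced in oocytes, 2-4 cell embryos, 8-16 cell embryos, morulae and blastocysts, which gives 5 stages for either animal. No strain, genotype, treatment or age is given in the labels, nor how many oocytes or embryos were pooled for a library. Each stage of each species had 1 library, 10 in all, so no difference has a replicate check and no p-value is given. By its title the series belongs to work on methylation of DNA and on imprinted genes before implantation.

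Levels are counts per 1000000 library reads (RPM). They follow a gene over stages, but without division by length they do not rank genes against each other. Read totals ranged from 3002751 to 14182046, and the cow blastocyst library was the deepest. The count of 3 reads that a result of 0 reads still allows corresponded to between 0.212 and 0.999 RPM. Mitochondrial genes took between 2.74% and 30.2% of the reads. Of 11 oocyte markers with a row in cow, all were present at 1 RPM or more in the oocyte library, summing to 6273 RPM, and all 11 had 0 reads in the blastocyst library. In pig 11 oocyte markers summed to 8140 RPM in the oocyte library and 23.6 RPM in the blastocyst library. The blastocyst markers went the other way, with sums of 36.7 and 3310 RPM in the cow oocyte and blastocyst libraries and 21.0 and 7238 RPM in those of pig.

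All 7 cow members were at their highest in the 2-4 cell library, and their sum was lower in each later library, down to 17 reads in the blastocyst library. Their levels summed to 1425 RPM in oocytes (1392 to 1459 as 95% Wilson interval), 2102 in 2-4 cell embryos, 275 in 8-16 cell embryos, 36.2 RPM in the morula and 1.20 RPM in the blastocyst (0.748 to 1.92). In pig the sum was 1184 RPM in the oocyte library (1148 to 1221), 625 in 2-4 cell embryos, 674 in 8-16 cell embryos, 47.6 RPM in the morula and 1.61 RPM in the blastocyst (0.737 to 3.51). The pig sum was thus lower from the first cleavages on, stayed near that level for a stage, and dropped at the morula, a stage later than in cow. Intervals here and below cover the error of counting reads and nothing else. In bulk RNA, fewer cells of a type and less RNA per cell cannot be told apart.

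**Figure D1:**
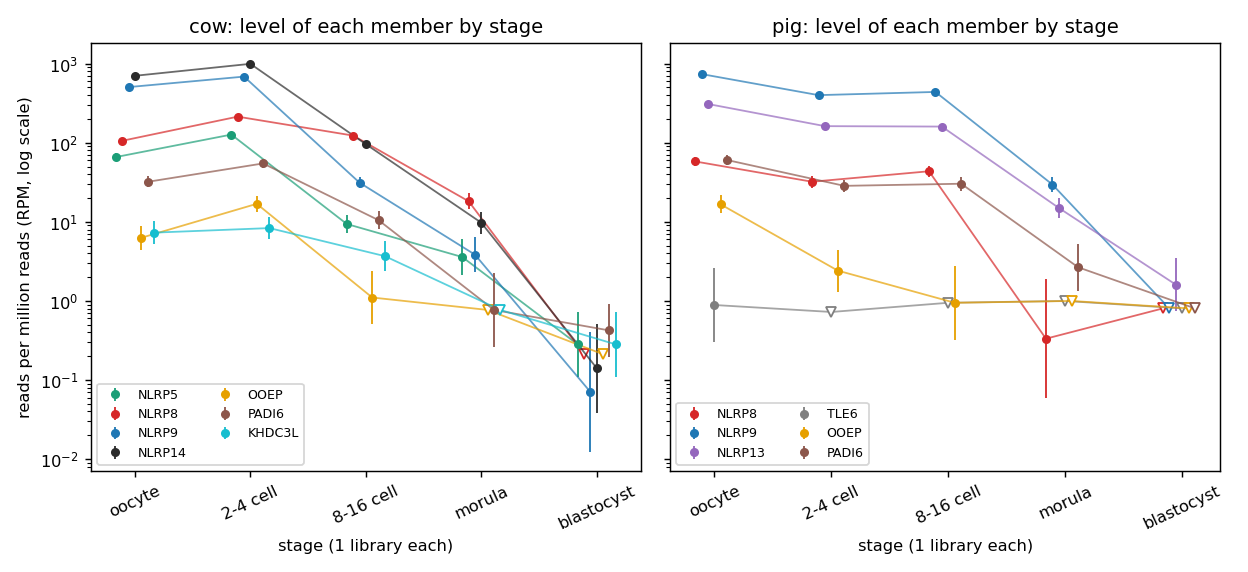
Level of each member in RPM (log scale) in the 5 libraries of cow (left) and pig (right); bars are 95% Wilson intervals of the read count, and open triangles mark libraries with 0 reads, drawn at the level of 3 reads. In cow the points drop from the 2-4 cell stage on, with NLRP8 still at 123 RPM at the 8-16 cell stage; in pig NLRP9 is at 439 RPM there and at 29.6 RPM in the morula.

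Changes were computed as differences of log2(RPM + 1) for genes with at least 1 RPM in 1 of the libraries compared, and a difference of at least 2, a factor of 4 in RPM + 1, was called. For low genes this scale shows less than the full fold. From oocyte to blastocyst all 7 cow members were called lower, where 18.4% of all 12738 genes compared were called lower, with a median change of -5.71 for the members and 0.18 for all genes. All 5 compared pig members were called lower too, against 19.2% of 12512 genes, with a median of -5.63 (-5.09 with libraries at 0 reads set to 3 reads) and 0.43 for all genes. The sixth pig member, TLE6, was too low to compare. No member was called higher in either species.

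The steps at which members were called lower were not the same in both species, a difference that was not tested. From the cow oocyte to the 2-4 cell library 0 of 7 members were called lower (0.178% of all genes). All 7 were higher by some amount, as were 66.8% of all genes, with a median of 0.75 against 0.27 for all genes. With each library set to the same median, or with quantile normalisation, KHDC3L was lower by 0.19 or 0.16 and the other 6 remained higher. From the cow 2-4 cell to the 8-16 cell library 5 of 7 were called lower (14.6% of all genes), from there to the morula 4 of 7 (5.15%), and from the morula to the blastocyst 3 of the 4 that could still be compared (11.5%). Cow medians at these 3 steps were -3.09, -2.69 and -2.71, against -0.44, 0.07 and -0.11 for all genes.

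In pig 1 of 5 compared members, OOEP, was called lower from the oocyte to the 2-4 cell library (2.17% of all genes). All 5 were lower by some amount, as were 56.7% of all genes, with a median of -0.93 against -0.14. From the 2-4 cell to the 8-16 cell library 0 of 5 were called lower (0.543%), with a median of 0.09 against 0.21 for all genes. At this step NLRP8, NLRP9 and PADI6 were slightly higher with library scaling, but all 5 were lower with each library set to the same median, by 0.01 (NLRP8) to 1.25 (OOEP). From there to the morula 4 of 4 were called lower (11.3%), with a median of -3.59 against 0.18. The last step called 2 of 3 lower (13.8%), with a median of -2.62 against -0.11. On this scale 4 of 7 cow members (NLRP5, NLRP9, NLRP14 and OOEP) had their largest fall on entering the 8-16 cell stage, PADI6 and KHDC3L at the next step, and NLRP8 at the last. The step was not the same under all settings. With a pseudocount of 0.25 in place of 1, NLRP14 fell most at the last step (-4.68 against -3.37 on entering the 8-16 cell stage). NLRP14 did so too with each library set to the same median (-3.48 against -3.17). With a pseudocount of 5, PADI6 fell most on entering the 8-16 cell stage (-1.95 against -1.43 at the next step). NLRP8 then fell most on entering the morula (-2.47 against -2.20 at the last step). In pig, with a pseudocount of 1, 3 members (NLRP8, NLRP13 and PADI6) had their largest fall on entering the morula, NLRP9 at the last step and OOEP at the first. With a pseudocount of 5, pig NLRP9 also fell most on entering the morula (-3.68 against -2.72 at the last step).

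**Figure D2:**
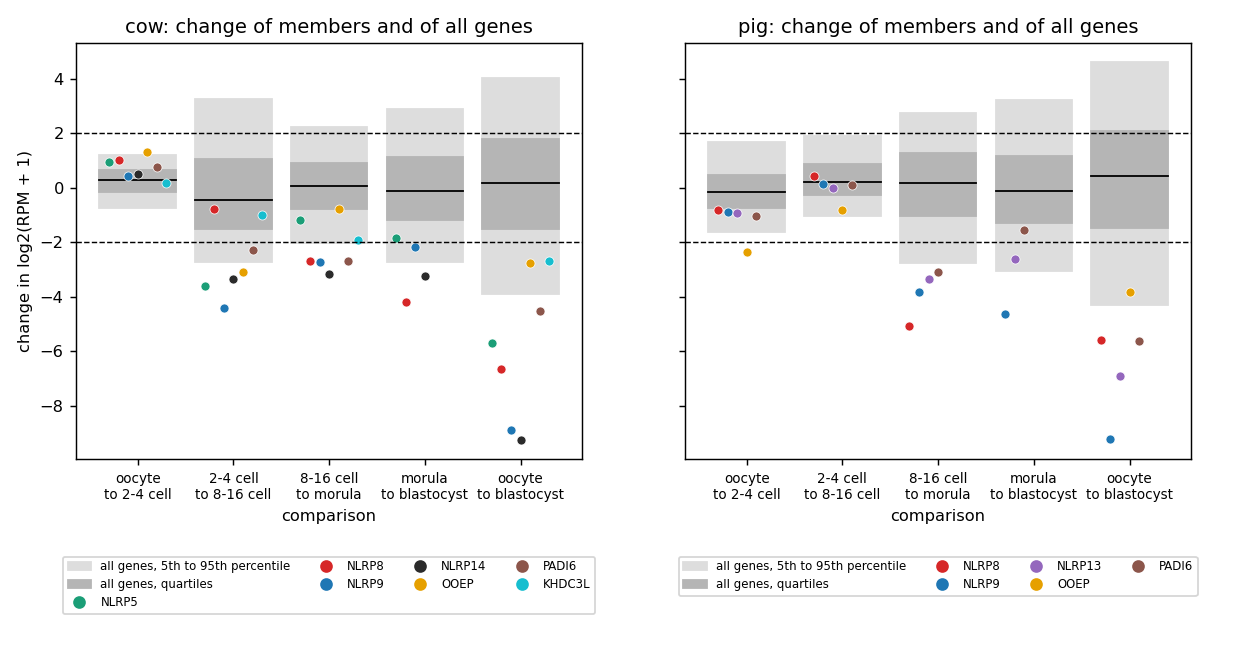
Change in log2(RPM + 1) of each compared member (points) at each step and from oocyte to blastocyst, in cow (left) and pig (right). Grey boxes give the quartiles and the 5th to 95th percentile of all compared genes, the black line their median, and dashed lines the call at 2; the cow points lie lowest among consecutive steps from the 2-4 cell to the 8-16 cell stage for NLRP9 (-4.41), and the pig points from the 8-16 cell stage to the morula for NLRP8 (-5.06).

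NLRP5, the founding member of the complex, had a row in cow only, on chromosome 18, 63668487 to 63683298, plus strand. Its level was 65.9 RPM in the oocyte library (59.1 to 73.5), 127 in 2-4 cell embryos, 9.39 in 8-16 cell embryos, 3.59 RPM in the morula and 0.282 RPM, 4 reads, in the blastocyst. The 2-4 cell library was the highest, 1.92-fold above the oocyte library (1.68 to 2.21). NLRP5 fell 13.5-fold to the 8-16 cell library (10.1 to 18.4), and of the 12405 genes compared at that step 107, or 0.863%, fell as far. From oocyte to blastocyst it fell 234-fold (90.4 to 863).

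NLRP14 encodes a germ-cell NLRP protein that is needed in the mouse for embryos to pass the first cleavages. It lies on cow chromosome 15, 46301834 to 46339682, minus strand, apart from the other NLRP members. Its levels were 702 RPM in the oocyte library (679 to 726), 995 in 2-4 cell embryos, 95.9 in 8-16 cell embryos, 9.75 RPM in the morula and 0.141 RPM, 2 reads, in the blastocyst. It was 10.4-fold lower at the 8-16 cell stage than at the 2-4 cell stage (9.47 to 11.4) and 9.84-fold lower again in the morula (7.07 to 14.1). With 2 reads in the blastocyst library, the ratio of oocyte to blastocyst was 4981 with an interval from 1378 to 41146.

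NLRP9, one of the oocyte-expressed NLRP genes with a row in both species, lies on cow chromosome 18, 62219311 to 62245235, minus strand, and on pig chromosome 6, 59949004 to 59973856, plus strand. Cow levels, in the order of the stages, were 505 RPM (486 to 526), 686 RPM, 31.3 RPM, 3.85 RPM and 0.0705 RPM, the last being 1 read. The fall from the 2-4 cell to the 8-16 cell library was 21.9-fold (18.8 to 25.7), and 14 of the 12405 genes compared, 0.113%, fell as far. Pig levels were 739 RPM (710 to 768), then 400, 439 and 29.6 RPM, with 0 reads in blastocysts.

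The pig NLRP9 levels at the 2-4 cell and 8-16 cell stages were thus close to each other, with a ratio of 1.10 (1.02 to 1.18) that turns to a change of -0.30 with each library set to the same median, before a 14.8-fold fall to the morula (11.9 to 18.6). From oocyte to blastocyst pig NLRP9 fell at least 918-fold, and 10 of 12512 genes, 0.0799%, fell as far. In cow, with 1 blastocyst read, the ratio was 7169 with an interval from 1285 to 283263.

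NLRP8 lies on cow chromosome 18, 63645889 to 63660919, plus strand, and on pig chromosome 6, 60350622 to 60375307, plus strand. In cow it was at 106 RPM in the oocyte library (97.2 to 115), 214 in 2-4 cell embryos, 123 in 8-16 cell embryos (114 to 133), 18.2 RPM in the morula and 0 reads in the blastocyst. It was the only cow member whose 8-16 cell level was not under its oocyte level, at 116% of it, where the other 6 stood between 6.19% (NLRP9) and 50.4% (KHDC3L). Its step from the 2-4 cell to the 8-16 cell library was a 1.74-fold lower level (1.57 to 1.92) and was not called. It then fell 6.76-fold to the morula (5.29 to 8.76) and at least 86.1-fold from there to the blastocyst.

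In pig NLRP8 was at 58.0 RPM in the oocyte library (50.5 to 66.7), 32.1 in 2-4 cell embryos, 43.6 in 8-16 cell embryos, 0.333 RPM, 1 read, in the morula and 0 reads in the blastocyst. Its 8-16 cell level was the highest of the pig members relative to the oocyte, 75.1%, where the other members with more than 3 oocyte reads stood between 5.72% (OOEP) and 59.4% (NLRP9). From the 8-16 cell library to the morula the ratio was 131 with an interval from 23.1 to 5206. Of the 12746 genes compared at that step, 5 fell as far. Pig NLRP8 thus had the largest share left at the 8-16 cell stage and, with a pseudocount of 1, the largest fall after it among the members. That fall rests on 1 morula read, and with a pseudocount of 5 NLRP9 fell farther (-3.68 against -3.19).

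NLRP13 had a row in pig only, on chromosome 6, 60287201 to 60337958, minus strand. Its levels were 309 RPM in the oocyte library (291 to 328), 162 in 2-4 cell embryos, 160 in 8-16 cell embryos, 15.0 RPM in the morula and 1.61 RPM, 6 reads, in the blastocyst (0.737 to 3.51). The 2-4 cell and 8-16 cell levels did not differ beyond counting error, with a ratio of 0.988 (0.878 to 1.11). NLRP13 fell 10.7-fold to the morula (7.87 to 14.8) and 192-fold from oocyte to blastocyst (88.0 to 525). It was the only pig member with reads left in the blastocyst library.

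OOEP encodes a small KH-domain protein of the complex, also known as FLOPED. It lies on cow chromosome 9, 12981373 to 12982550, and on pig chromosome 1, 53006898 to 53007877, on the minus strand in both. In cow it had 6.29 RPM in the oocyte library (4.43 to 8.93), 16.9 in 2-4 cell embryos (13.5 to 21.2), 1.10 in 8-16 cell embryos, and 0 reads in the morula and the blastocyst. In pig it had 16.6 RPM in the oocyte library (12.8 to 21.5), 2.42 in 2-4 cell embryos, 0.948 RPM, 3 reads, at the 8-16 cell stage, and 0 reads in both later libraries.

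OOEP had the most distant ratios of both species at the first step, 2.69-fold higher in the cow 2-4 cell library than in the oocyte library (1.75 to 4.23) and 6.86-fold lower in pig (3.47 to 15.1). It was the earliest of the pig members to be called lower. From oocyte to blastocyst it fell at least 29.7-fold in cow and at least 20.6-fold in pig. The pig OOEP span overlaps a row without a gene symbol on the other strand, and the handling of strand is not given in the sources used here, so reads of the pair cannot be told apart. That row went from 32.3 RPM in the oocyte library to 0 reads in the blastocyst.

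KHDC3L, the partner of OOEP with a KH domain, had a row in cow only, on chromosome 9, 12969175 to 12970434, plus strand. Its levels were 7.30 RPM in the oocyte library (5.27 to 10.1), 8.34 in 2-4 cell embryos (6.05 to 11.5), 3.68 in 8-16 cell embryos (2.38 to 5.69), 0 reads in the morula and 0.282 RPM, 4 reads, in the blastocyst. The oocyte and 2-4 cell levels overlapped within counting error. From the 8-16 cell library to the morula it was at least 4.79-fold lower, a difference of -1.93 that was not called, and from oocyte to blastocyst it fell 25.9-fold (9.28 to 100.1).

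PADI6 lies on cow chromosome 2, 135812788 to 135832714, minus strand, and on pig chromosome 6, 75969886 to 75987096, plus strand. In cow it was at 32.0 RPM in the oocyte library (27.4 to 37.5), 54.7 in 2-4 cell embryos, 10.5 in 8-16 cell embryos, 0.769 RPM, 3 reads, in the morula and 0.423 RPM, 6 reads, in the blastocyst. In pig it was at 60.4 RPM in the oocyte library (52.7 to 69.3), 28.5 in 2-4 cell embryos, 30.3 in 8-16 cell embryos, 2.66 RPM in the morula and 0 reads in the blastocyst. Cow PADI6 fell 5.22-fold from the 2-4 cell to the 8-16 cell library (3.90 to 7.09), where the pig levels did not differ beyond counting error, with a ratio of 1.06 (0.804 to 1.40), which the same median scaling turns to a change of -0.35. Pig PADI6 fell 11.4-fold at the next step, to the morula (5.55 to 27.1).

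TLE6, the Groucho-related scaffold of the complex, had a row in pig only, on chromosome 2, 75538359 to 75542331, minus strand. It had 3 reads in the oocyte library, 0.888 RPM (0.302 to 2.61), and 0 reads in the other 4 libraries, which allows up to between 0.725 and 0.999 RPM there. No change was detectable at this depth. Its span overlaps TLE2 on the plus strand, which had 1.48 RPM in the oocyte library.

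The share of the oocyte level that was left was compared between members, whose order in cow changed between stages. RPM is relative to all reads of a library, so a lower share is not by itself a loss of RNA. Among the 5 cow members with at least 10 RPM in the oocyte library, the median share left was 171% at the 2-4 cell stage, 14.2% at the 8-16 cell stage and 2.40% in the morula. For 11 cow oocyte markers with the same minimum it was 115%, 9.69% and 1.16%, and for all 1917 such genes that were called lower from oocyte to blastocyst it was 103%, 31.7% and 17.3%. By value alone, NLRP5, NLRP14 and OOEP lay between the oocyte markers and the middle of all falling genes at the 8-16 cell stage. NLRP8, KHDC3L and PADI6 lay above both, and NLRP9 under both. PADI6, at 32.7%, was close to the 31.7% of all falling genes. OOEP and KHDC3L had only 6 and 20 reads at that stage, so their places are not certain. In pig the median over 5 members was 52.5% at the 2-4 cell stage, 51.8% at the 8-16 cell stage and 4.01% in the morula. The pig oocyte markers stood at 33.9%, 35.5% and 2.35% over 10 genes, and all 2041 falling genes at 80.4%, 73.9% and 20.1%.

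**Figure D3:**
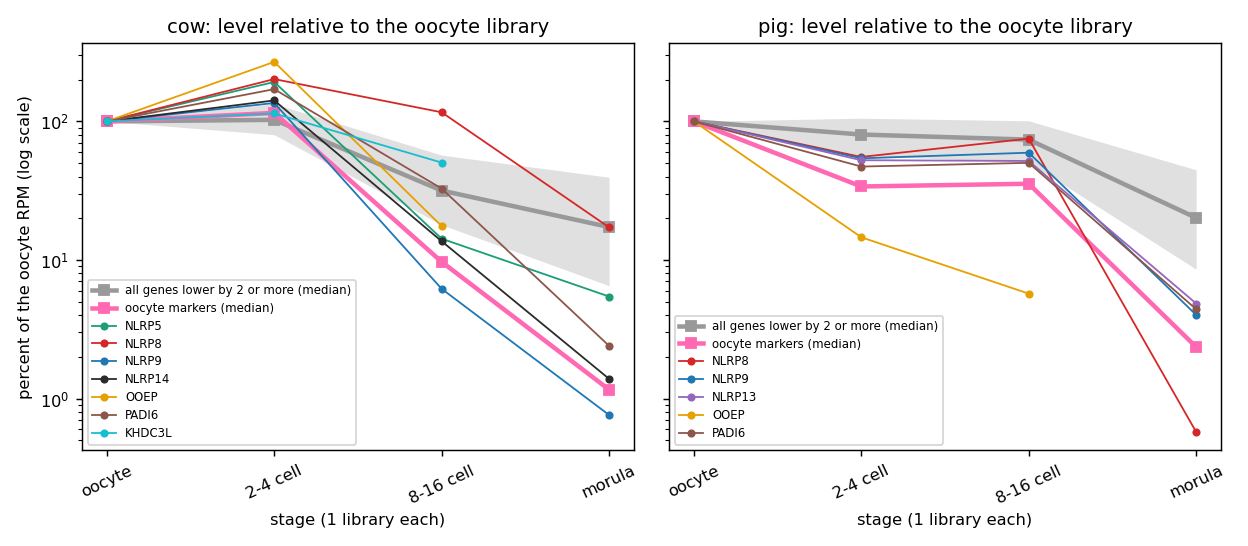
Level of each member as a percent of its oocyte RPM (log scale) up to the morula, with the median of the oocyte markers (pink squares) and the median and quartiles of all genes called lower from oocyte to blastocyst (grey); libraries with 0 reads are left out, as is pig TLE6. Cow NLRP8 lies at 116% at the 8-16 cell stage while cow NLRP9 is at 6.19%; in pig 3 members lie between 4.01% and 4.85% in the morula and NLRP8 at 0.574%.

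Shares within the members' own reads do not depend on how a library was scaled. In cow NLRP8 took 7.43% of the members' reads in the oocyte library (6.84 to 8.07), 10.2% at the 2-4 cell stage, 44.8% at the 8-16 cell stage (42.3 to 47.3) and 50.4% in the morula (42.2 to 58.5). NLRP9 went from 35.5% to 32.6%, 11.4% and 10.6% over the same libraries, and NLRP14 from 49.3% to 47.3%, 34.9% and 27.0%. NLRP8 and its neighbour NLRP5 had a read ratio of 1.61 in the oocyte library (1.40 to 1.85) and 1.69 at the 2-4 cell stage, then 13.1 at the 8-16 cell stage (9.86 to 17.8) and 5.07 in the morula (2.83 to 9.74). At the 2-4 cell stage OOEP had the largest share of its oocyte level among the cow members, 269% against 202% for NLRP8. NLRP8 had the largest at the 8-16 cell stage, 116%, and in the morula, 17.2%. In the blastocyst library, the deepest one, it had 0 reads, while NLRP5, NLRP9, NLRP14, PADI6 and KHDC3L had between 1 and 6.

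In pig the shares of the members with the most reads stayed close over the first 3 libraries, while that of OOEP shrank. OOEP took 1.40% of the members' reads in the oocyte library (1.08 to 1.81), 0.387% at the 2-4 cell stage and 0.141% at the 8-16 cell stage (0.0478 to 0.413). NLRP9 took 62.4%, 64.0% and 65.1% of the members' reads, NLRP13 26.1%, 25.9% and 23.8%, and PADI6 5.10%, 4.56% and 4.50%. The read ratio of NLRP13 to NLRP9 was 0.418 in the oocyte library (0.389 to 0.450), 0.405 at the 2-4 cell stage, 0.365 at the 8-16 cell stage (0.329 to 0.404) and 0.506 in the morula (0.345 to 0.732). The ratio of NLRP8 to NLRP9 was 0.0786 (0.0676 to 0.0909), 0.0804 and 0.0993 (0.0827 to 0.118) in the first 3 libraries, and in the morula NLRP8 was 1 of 143 member reads. Whether the makeup differed between the species was not tested, since the sets of members and the tables differ.

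**Figure D4:**
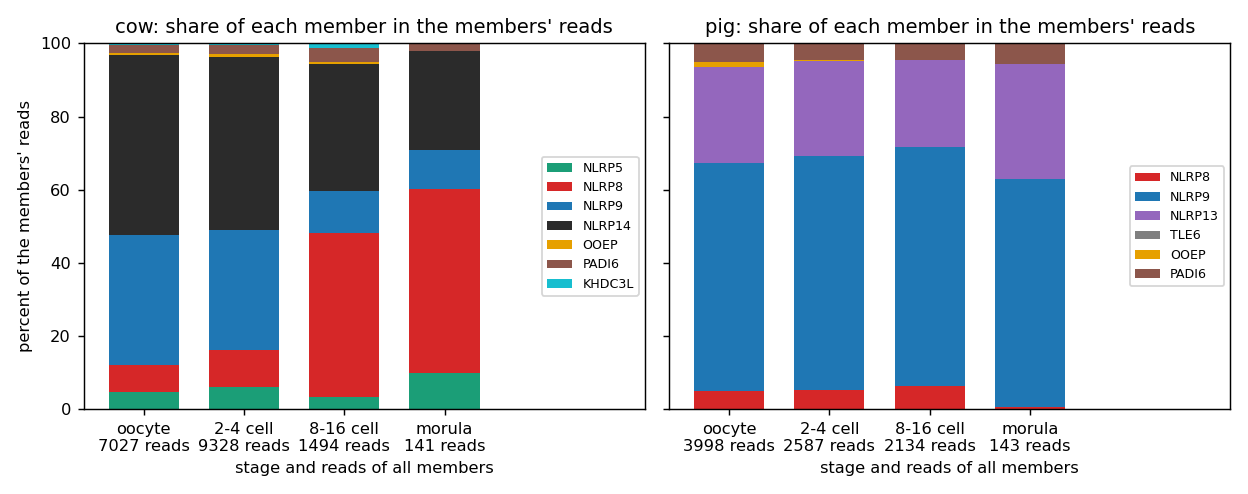
Share of each member in the reads of all members, in percent, in the oocyte to morula libraries of cow (left) and pig (right), with the number of member reads under each bar; the blastocyst libraries, with 17 and 6 member reads, are left out. The NLRP8 share in cow goes from 7.43% to 50.4%, and the NLRP9 share in pig stays between 62.2% and 65.1%.

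Other genes of the family were taken from lists. Each species had a row for 4 other NLRP genes. From oocyte to blastocyst 1 of 3 compared in cow was called lower and 1 higher, and 1 of 2 in pig was called lower and 0 higher. Against these and the other list counts stand 18.4% of all genes called lower and 21.8% called higher in cow over this course, and 19.2% lower and 26.0% higher in pig; lists of so few genes are given as counts only. NLRP1, known as an inflammasome sensor, was at 38.9 RPM in the cow oocyte library, 59.3 in 2-4 cell embryos, 7.36 in 8-16 cell embryos, 1.28 RPM in the morula and 0 reads in the blastocyst. NLRP11 was at 808 RPM in the pig oocyte library, then 463, 298 and 19.6 RPM, with 0 reads in the blastocyst. NLRP3, the best known inflammasome sensor, was called higher from oocyte to blastocyst in cow, from 1 read at 0.203 RPM to 5.78 RPM, and was not called in pig, at 2.66 and 0.804 RPM.

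Among NLR genes outside the NLRP group, 2 of 5 compared were called lower and 0 higher in cow, and 1 of 3 lower and 1 higher in pig. NOD1, a sensor of bacterial peptidoglycan, was lower in both, at 53.1 against 3.60 RPM in cow and 23.4 against 1.61 RPM in pig. NLRX1, a mitochondrial NLR protein, was called higher in pig, from 0 reads to 12.1 RPM. Of the proteins that work with inflammasome sensors, 0 of 4 compared were called lower and 1 higher in cow, and 0 of 1 in either direction in pig. The cow one was IL18, a cytokine matured by inflammasomes, at 0.811 RPM in the oocyte library, 0 reads at the 2-4 cell stage, 126 in 8-16 cell embryos, 109 RPM in the morula and 26.6 RPM in the blastocyst. The 6 partners with a row in cow summed to 4.46 RPM in the oocyte library, and 2 of them were at 1 RPM or more. The adapter PYCARD, the pore protein GSDMD and IL1B had 0 reads there.

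Partners of the complex and other stored maternal factors moved with the members for the most part from oocyte to blastocyst. In cow 4 of 6 were called lower and 0 higher, and in pig 5 of 6 lower and 1 higher. At the pig step from morula to blastocyst they did not. There 0 of 5 were called lower and 1 higher, with a median of 1.09 against -2.62 for the members. KPNA7, an oocyte importin, had 798 RPM in cow oocytes, then 889, 101 and 1.80 RPM, and 0 reads in blastocysts. In pig KPNA7 went from 1433 to 1327, 752, 29.0 and 16.1 RPM. DPPA3, a maternal factor that guards the egg's DNA methylation pattern, went in cow from 2769 to 2062, 1546, 194 and 179 RPM. CFL1, the actin-severing cofilin, was the one called higher from oocyte to blastocyst in pig, at 11.0 and 82.8 RPM.

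The sequence relatives of PADI6 were near the limit of detection. None of the compared PADI1 to PADI4 rows was called in cow (0 of 2), and none could be compared in pig from oocyte to blastocyst. The highest level of any was 3.15 RPM, of PADI3 in the cow 2-4 cell library. Of the TLE genes, relatives of TLE6 and corepressors that bind transcription factors, 0 of 5 were called lower and 3 higher in cow, and 0 of 4 lower and 2 higher in pig, where TLE6 itself was too low for a comparison. Cow oocytes and blastocysts had 11.0 and 64.9 RPM of TLE1 and 0.811 and 135 RPM of TLE3, and TLE2 went from 0 reads to 7.40 RPM. The pig values were 3.55 and 57.6 RPM for TLE1, and 0.888 RPM, which is 3 reads, and 23.6 RPM for TLE3.

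Transcription factors that drive oocyte genes were mostly lower, 3 of 4 called lower and 1 higher in cow and 2 of 4 lower and 0 higher in pig. LHX8 dropped in cow from 164 to 4.72 RPM, and in pig from 192 RPM to 0 reads, with 165 RPM still at the pig 8-16 cell stage and 31.8 RPM at the cow one. TAF4B, a germ-cell subunit of the general transcription machinery, was the factor called higher in cow, from 13.8 RPM to 282 RPM at the 8-16 cell stage and 116 RPM in the blastocyst.

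Of the markers of cells that surround the oocyte, 3 of 7 compared were called lower and 1 higher from oocyte to blastocyst in cow, with a median change of -0.63, and 1 of 5 lower and 2 higher in pig. The 11 cumulus and granulosa markers with a row summed to 344 RPM in the cow oocyte library, 350 in 2-4 cell embryos, 110 in 8-16 cell embryos, 87.7 RPM in the morula and 88.0 RPM in the blastocyst. STAR, which brings cholesterol into mitochondria, held 157 and HAS2, which makes hyaluronan, 141 of the 344 RPM, and AMH, FOXL2 and INHA had 0 reads in that library. STAR was at 31.7 and HAS2 at 50.8 RPM in the cow 8-16 cell library, and both were called lower by the blastocyst, at 10.3 RPM and 0 reads. The cow marker called higher was CYP19A1, the aromatase, from 2.64 to 48.8 RPM. In pig CYP19A1 (4.14 to 20.4 RPM) and NR5A2 (0 reads to 4.29 RPM) were called higher. The 8 pig markers summed to 58.9, 51.5, 157, 135 and 40.2 RPM, with INHA, INHBA, TNFAIP6 and NR5A2 at 0 reads in the oocyte library. Immune markers summed to 82.2 RPM in the cow oocyte library, of which CSF1R was 81.7 RPM, while PTPRC, CD14, ITGAM and AIF1 had 0 reads, and to 7.97 RPM in the cow blastocyst library, where CSF1R had 0 reads and CD68 was called higher at 6.06 RPM. In pig they summed to 7.99 and 63.3 RPM in those libraries, with AIF1 called higher, from 0 reads to 52.0 RPM. The part of such cells in the members' levels was not tested.

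The genes whose course over the 5 libraries was closest to the average of the members were looked up among other genes that reached 10 RPM. Rows without a gene symbol were not ranked. Closeness was the root mean square difference of log2(RPM + 1) profiles after each was centred. In cow, among 8956 genes, they were SGMS2 (0.17), RAI14 (0.18), TECTB (0.24), TSPAN7 (0.25) and DAZL (0.27), the average being over 6 members. SGMS2, a sphingomyelin synthase, started at 133 RPM and then had 169, 24.7, 5.39 and 0.423 RPM. DAZL, an RNA-binding protein of germ cells, went from 137 to 158, 27.6 and 3.85 RPM and 0 reads.

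In pig, among 8249 genes and with an average over 5 members, the closest were GDF9 (0.17), PLB1 (0.17), ZAR1L (0.17), WDR91 (0.20) and MFSD4A (0.22). GDF9, a growth factor that the oocyte secretes, went from 1252 RPM to 682, 686, 63.9 and 15.3 RPM. ZAR1L, a relative of the zygote arrest gene, went from 120 to 35.3, 41.4 and 3.33 RPM and 0 reads. In cow the members in the average differed from it by 0.41 (NLRP5) to 1.30 (OOEP). In pig OOEP, also part of the average, lay farthest from it among the members in it. The other pig members in the average differed from it by 0.20 (PADI6) to 1.28 (NLRP9). KHDC3L in cow (1.47) and TLE6 in pig (2.20) did not reach 10 RPM and were not part of it. These values rest on 5 libraries per species and carry no p-value.

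Several members are neighbours on the chromosome. In cow NLRP8 and NLRP5 lie 7567 bases apart on the same strand of chromosome 18, and in pig NLRP13 and NLRP8 lie 12663 bases apart on opposite strands of chromosome 6. From oocyte to blastocyst 18.4% of all cow genes compared were called lower and 21.8% higher. Between the outermost NLRP members of cow chromosome 18, 62219311 to 63683298, were 79 other rows. Of these 28 could be compared, and 5 were called lower and 5 higher over this course. Named genes among the lower ones were BRSK1 (9.53 to 0.846 RPM) and CNOT3 (61.1 to 4.09 RPM), and the other 3 had no symbol. ENSBTAG00000047473 went from 255 to 1.62 RPM and ENSBTAG00000047953 from 118 RPM to 0 reads. Ribosomal protein genes in the same stretch went up, RPL28 from 17.9 to 111 RPM and RPS9 from 1.01 to 127 RPM, so the stretch as a whole did not move one way.

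The pig stretch on chromosome 6, 59949004 to 60375307, held 6 other rows. Of these 2 could be compared and 1, NLRP11, was called lower, where 19.2% of all pig genes were. OOEP has DDX43, a germ-cell RNA helicase, as its neighbour in both species. It was called lower in both, with 50.9 RPM in oocytes and 4.58 RPM in blastocysts of cow, and 241 RPM and 0 reads in those of pig. KHDC3L lies 10938 bases from OOEP in cow, and the row before pig OOEP is DPPA5, another KH-domain gene of this cluster, which went from 147 RPM through 41.8, 17.4 and 0.666 RPM (2 reads) to 16.6 RPM in the blastocyst. PADI4, next to PADI6 in cow, had 0 reads in all 5 libraries.

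**Figure D5:**
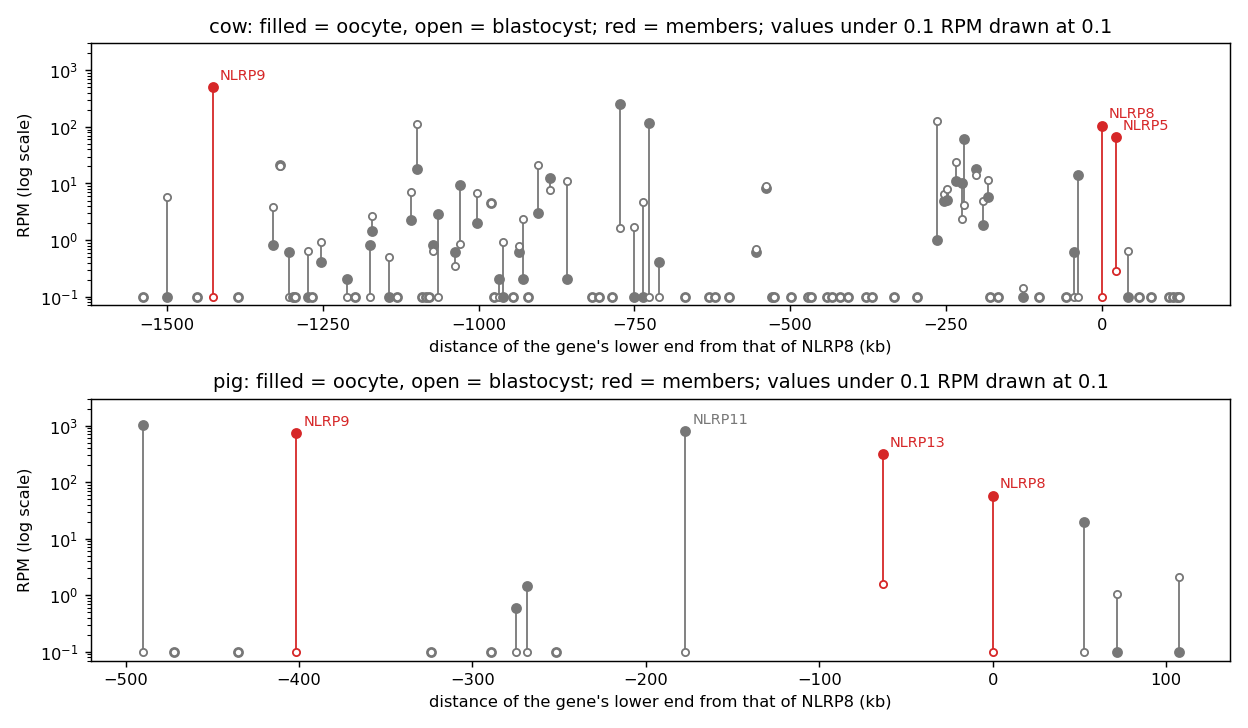
Levels in the oocyte (filled) and blastocyst (open) libraries of genes around the NLRP members of cow chromosome 18 (top) and pig chromosome 6 (bottom), in RPM (log scale), by distance in kb from NLRP8; members are red, other rows grey, and values under 0.1 RPM are drawn at 0.1. The cow stretch mixes falling genes with rising ones such as RPS9 (1.01 to 127 RPM), and in pig NLRP11 falls from 808 RPM to 0 reads between NLRP9 and NLRP13.

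For the 4 members with a row in both species, the whole course had the same direction, lower in the blastocyst library of each. Directions at the first step were opposite for all 4, higher in cow and lower in pig, under each of the scalings tried. The cow rise of NLRP9 was small with each library set to the same median, 0.08 against 0.44 with library scaling. The tables of both species were scaled separately by the authors, so levels are not set against each other. Against the median of all genes at that step, NLRP8, NLRP9, OOEP and PADI6 were above it in cow and under it in pig.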

How the data were processed

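Total RNA of 10 libraries (5 stages in cow, 5 in pig) was isolated with a PicoPure kit, amplified with an Ovation low-input kit and given 8 PCR cycles, per the labels' protocols. Amplified reads without molecular identifiers are not independent molecules. The submitters' processing notes name Trim Galore 0.6.4, HISAT2 2.1.0 and the builds UMD3.1 and Sscrofa11.1. Counting tool, annotation and strand handling are not given in the sources used here. The authors deposited log2 values in 1 table per species. In each column between 99.94% and 99.99% of values are whole multiples of 1 read (tolerance 0.01 of a read), which gives reads and RPM, with 0 reads written as 0.9 of a read. Values are per library, not per length. Coordinates are as deposited.

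Changes are differences of log2(RPM + 1) with the deposited value at 0 reads; genes needed 1 RPM in 1 library. Folds against 0 reads use 3 reads of that library; with 1 to 3 reads the ratio and interval are given. Levels and shares have 95% Wilson intervals, ratios exact Clopper-Pearson intervals of the split of reads (Python 3.11.15, scipy 1.17.1, statsmodels 0.14.6). The scripts were tested on simulated data. Members and lists were chosen with earlier results of these data known. All members are named. Of other lists the rule allowed the 2 genes with the highest summed RPM per species and those called against the members. The text uses these in part. The 5 genes with a symbol that were most like the members are named. Other names (such as neighbours and genes at 0 reads) were chosen after their values were seen. Alternatives were 12 settings of pseudocount, minimum, threshold, scaling, depth, repeated symbols and 0 reads.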

Additional observations from a re-analysis of the deposited data

Results flagged for a closer look

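Members that moved in opposite directions in cow and pig at the same step with a counting interval that excludes 1 in both, are given here as the ratio of the later to the earlier library; each species had 1 library per stage, so the difference between the species was not tested. From the oocyte to the 2-4 cell library the ratio of NLRP8 was 2.02 in cow and 0.554 in pig. It was 1.36 in cow and 0.541 in pig for NLRP9, 2.69 and 0.146 for OOEP, and 1.71 and 0.472 for PADI6. With each library set to the same median the cow change of NLRP9 at this step was 0.08, against 0.44 with library scaling. From the 2-4 cell to the 8-16 cell library the ratio was 0.576 in cow and 1.36 in pig for NLRP8. For NLRP9 the ratio was 0.0456 in cow and 1.10 in pig. The pig rises at this second step depend on the scaling: with each library set to the same median the pig changes were -0.01 for NLRP8 and -0.30 for NLRP9, against 0.43 and 0.13 with library scaling, and all 5 compared pig members were then lower. PADI6 also had ratios on either side of 1 at this step, 0.192 in cow and 1.06 in pig, but the pig interval (0.804 to 1.40) includes 1.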

How the results depend on the processing

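No paired analysis was possible because each stage of each species had 1 library, and no replicate could be left out. Of 132 recomputed counts of members called, or moving the same way, 123 stayed within 1.5 times the main count and 9 did not. None of the called changes of a member reversed under the alternatives. With a pseudocount of 5 the members called lower were 3 from the cow 2-4 cell to the 8-16 cell library, 1 from the cow morula to the blastocyst, 0 from the pig oocyte to the 2-4 cell library and 1 from the pig morula to the blastocyst. With a threshold of 1 there were 2 called at the first step in cow, both higher, and 2 in pig, both lower. With a threshold of 3 there was 1 from the cow 8-16 cell library to the morula, 0 at the first pig step and 1 from the pig morula to the blastocyst. The call of pig OOEP at the first step is thus lost under a larger pseudocount or threshold. Its change was -2.36 in the main setting and -1.54 with a pseudocount of 5. Setting each library to the same median moved the median of all genes from oocyte to blastocyst by -0.60 in cow and -0.76 in pig, and quantile normalisation by -0.20 and -0.42. Scaling to non-mitochondrial reads moved it by 0.42 in cow. Depth limits OOEP, KHDC3L and TLE6 most, with at most 75 reads in any library, and all members in the blastocyst.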
